A study of Mus musculus with 18 samples.

Results

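The 7 genes described here encode secreted defence proteins that rise in inflammation: Slpi, Lcn2, Saa3, Ptx3, Hp, Wfdc17 and Wfdc21. They were taken from a fixed list of names out of the 55401 genes counted, and a gene was to be dropped if it had fewer than 3 counts in every library. All 7 stayed. Wfdc21 lay just inside that floor, with a highest count of 4 in any library, and no listed gene lay outside it. The members were selected on one measured value, that count floor, but the names were listed with earlier results of these data known, so the tests below are no independent evidence that these genes respond.

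RNA of LPS-treated mouse macrophages was sequenced in 18 libraries, 3 in each of 6 groups. Macrophages taken from the peritoneum of SMIM30-Mut mice (Mut) were set against those of wild-type mice (WT). Mut macrophages that received a SMIM30 overexpression adenovirus (Mut-SMIM30-OE) were set against Mut macrophages that received a control adenovirus (Mut-Control), added 6 h after seeding and left for 24 h. IC-21 cells, an established mouse macrophage line, were transfected with SMIM30 siRNA for 24 h (siSMIM30) and set against siControl cells. Every group, the controls included, was given LPS at 5 ng/ml for 6 h before collection, so no unstimulated level was measured, and the strain label of every library, IC-21 included, was C57BL/6J. Mut-SMIM30-OE and Mut-Control cells both carried the mutation. The labels do not say what the mutation changes, whether it acts in all cells of the mouse, or which promoter drives the virus insert. They name triplicates without saying whether these came from separate mice or cultures, so p-values measure the spread between these libraries, which may be technical.

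Libraries held 6855245 to 13456857 assigned read pairs, so the floor of 3 counts stood at 0.223 to 0.438 CPM. CPM is a gene's number of read pairs for every 1000000 pairs assigned to genes in that library, and floors cover counting error only. Smim30, listed as 2610001J05Rik, averaged 48.7 ± 5.65 CPM in Mut and 48.1 ± 3.45 CPM in WT, 53.1 ± 1.86 CPM in Mut-SMIM30-OE and 43.9 ± 1.86 CPM in Mut-Control, and 10.7 ± 1.69 CPM in siSMIM30 and 21.4 ± 1.26 CPM in siControl (SD, n = 3 each). A change within the gene need not lower its RNA, so the equal levels in Mut and WT do not check those labels, whereas all siSMIM30 libraries lay below all siControl libraries. All Mut-SMIM30-OE libraries (51.6 to 55.1 CPM) lay above all Mut-Control libraries (42.1 to 45.9 CPM), a small difference for an overexpression. Whether RNA from the virus insert is counted under this gene is not given in the sources used here. All 11 macrophage markers listed were present in every group, with a summed level of 16588 to 20569 CPM in the peritoneal groups and 3571 to 3784 CPM in IC-21. Of 11 large peritoneal macrophage markers listed, Gata6, Timd4 and Prg4 had no counts in IC-21. Naip1, of the same list, averaged 29.5 CPM in siSMIM30 and 32.0 CPM in siControl, against 1.76 CPM in Mut and 2.38 CPM in WT. The list summed to 70.4 to 83.4 CPM in IC-21 and 102 to 132 CPM in the peritoneal groups.

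Acute-phase proteins are released when tissue is infected or injured, from liver and also from macrophages. Bacterial products and interleukin-1, interleukin-6 and TNF switch their genes on through NF-kB, C/EBP and STAT3 factors. Slpi (secretory leukocyte protease inhibitor) blocks neutrophil elastase and cathepsin G, and it restrains LPS responses of macrophages that make it. Wfdc17 and Wfdc21 belong to the same WAP domain family. Lcn2 (lipocalin 2) starves bacteria by binding their iron-carrying siderophores. Saa3 is the serum amyloid A form made by mouse macrophages, Ptx3 is a long pentraxin that binds microbes and complement, and Hp (haptoglobin) binds free haemoglobin.

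Of the 7 genes, 5 have a promoter in the RefSeq table used (GRCm38.p6). Shown are the 4 promoters of genes that changed in Mut against WT or in siSMIM30 against siControl below. They run from 250 bases before to 50 bases after the start given in that table. Those of Slpi (chr2:164356458-164356757), Lcn2 (chr2:32387690-32387989) and Saa3 (chr7:46715627-46715926) are on the minus strand, and that of Ptx3 (chr3:66219637-66219936) is on the plus strand. The windows of Slpi and Lcn2 lie wholly inside the counted genes, which begin further upstream. Capitals mark matches, on either strand, to the NF-kB letters (3 G, any 5 bases, 2 C) or the C/EBP letters TTNNGNAA.
Slpi: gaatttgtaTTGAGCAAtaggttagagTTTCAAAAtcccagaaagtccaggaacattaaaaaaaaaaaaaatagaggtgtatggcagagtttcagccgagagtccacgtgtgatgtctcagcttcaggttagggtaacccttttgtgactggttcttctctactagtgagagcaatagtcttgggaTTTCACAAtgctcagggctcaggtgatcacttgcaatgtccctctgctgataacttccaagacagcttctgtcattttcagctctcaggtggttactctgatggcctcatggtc
Lcn2: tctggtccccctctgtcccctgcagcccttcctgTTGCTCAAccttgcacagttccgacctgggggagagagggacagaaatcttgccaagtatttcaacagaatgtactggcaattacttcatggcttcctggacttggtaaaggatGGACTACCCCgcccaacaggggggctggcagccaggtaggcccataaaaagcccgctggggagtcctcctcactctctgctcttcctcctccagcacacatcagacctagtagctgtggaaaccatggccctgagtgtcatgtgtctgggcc
Saa3: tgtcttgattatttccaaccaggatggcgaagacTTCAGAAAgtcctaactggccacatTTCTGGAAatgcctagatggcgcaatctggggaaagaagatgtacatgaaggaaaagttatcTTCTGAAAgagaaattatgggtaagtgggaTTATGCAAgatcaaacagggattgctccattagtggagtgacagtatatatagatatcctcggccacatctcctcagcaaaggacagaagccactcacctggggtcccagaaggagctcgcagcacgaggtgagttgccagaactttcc
Ptx3: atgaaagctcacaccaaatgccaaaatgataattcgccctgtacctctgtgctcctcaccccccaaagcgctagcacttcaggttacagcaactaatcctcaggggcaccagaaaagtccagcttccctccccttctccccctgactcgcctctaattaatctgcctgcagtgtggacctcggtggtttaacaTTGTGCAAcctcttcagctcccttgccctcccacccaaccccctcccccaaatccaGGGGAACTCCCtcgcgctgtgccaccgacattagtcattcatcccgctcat

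The C/EBP letters were found 3 times in the Slpi window, 4 times in that of Saa3, 2 times in that of Wfdc17, and once each in those of Lcn2 and Ptx3. The NF-kB letters were found in the windows of Lcn2, as GGACTACCCC starting at base -102, and Ptx3, as overlapping matches that span the start site. None of the 5 windows held the STAT letters TTCNNNGAA or the AP-1 letters TGANTCA. Such short letters are common: of all 32841 promoters of the same length, 50.8% held the NF-kB letters, 40.7% the C/EBP letters, 8.30% the STAT letters and 7.81% the AP-1 letters. The matches describe the letters and say nothing of binding.

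The genes lie at separate loci of GRCm38. Chromosome 11 holds Wfdc17 (ENSMUSG00000069792.5, 83703991 to 83706268, plus strand) and Wfdc21 (ENSMUSG00000051748.2, 83746940 to 83752642, plus strand). Whether other genes lie between these was not checked. Slpi (ENSMUSG00000017002.14) spans bases 164354070 to 164389095 of chromosome 2 on the minus strand, and Lcn2 (ENSMUSG00000026822.14) spans bases 32384633 to 32388252 of the same chromosome and strand. Saa3 (ENSMUSG00000040026.8) spans bases 46711998 to 46715700 of chromosome 7 on the minus strand, Ptx3 (ENSMUSG00000027832.5) bases 66219910 to 66225805 of chromosome 3 on the plus strand, and Hp (ENSMUSG00000031722.10) bases 109575128 to 109579172 of chromosome 8 on the minus strand. Ptx3 lies within Veph1 on the opposite strand, with 0 shared exon bases. Slpi overlaps Mir7678 on the same strand, with 2 shared exon bases, and Mir7678 had a highest count of 6 in any library. Of the 50-base windows of Saa3 transcripts, 3.57% also occur in another gene, so a small share of its pairs is uncertain; 9 of them occur in Saa1. For the other 6 genes the share was 0%.

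Per kilobase of counted exon, Slpi, Saa3 and Wfdc17 stood far above the rest in primary macrophages. In Mut, Wfdc17 averaged 232 CPM per kb, Saa3 230.1 and Slpi 175, against 229, 252 and 289 CPM per kb in WT. Hp followed with 31.2 CPM per kb in Mut and 25.9 in WT, Lcn2 with 8.75 and 8.54, and Ptx3 with 4.64 and 1.81. In siControl cells the order differed, with Slpi at 80.5 CPM per kb, Wfdc17 at 28.3, Lcn2 at 17.5 and Saa3 at 15.3. Lcn2 was thus the one member with a higher CPM in IC-21 than in any primary group.

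**Figure D1:**
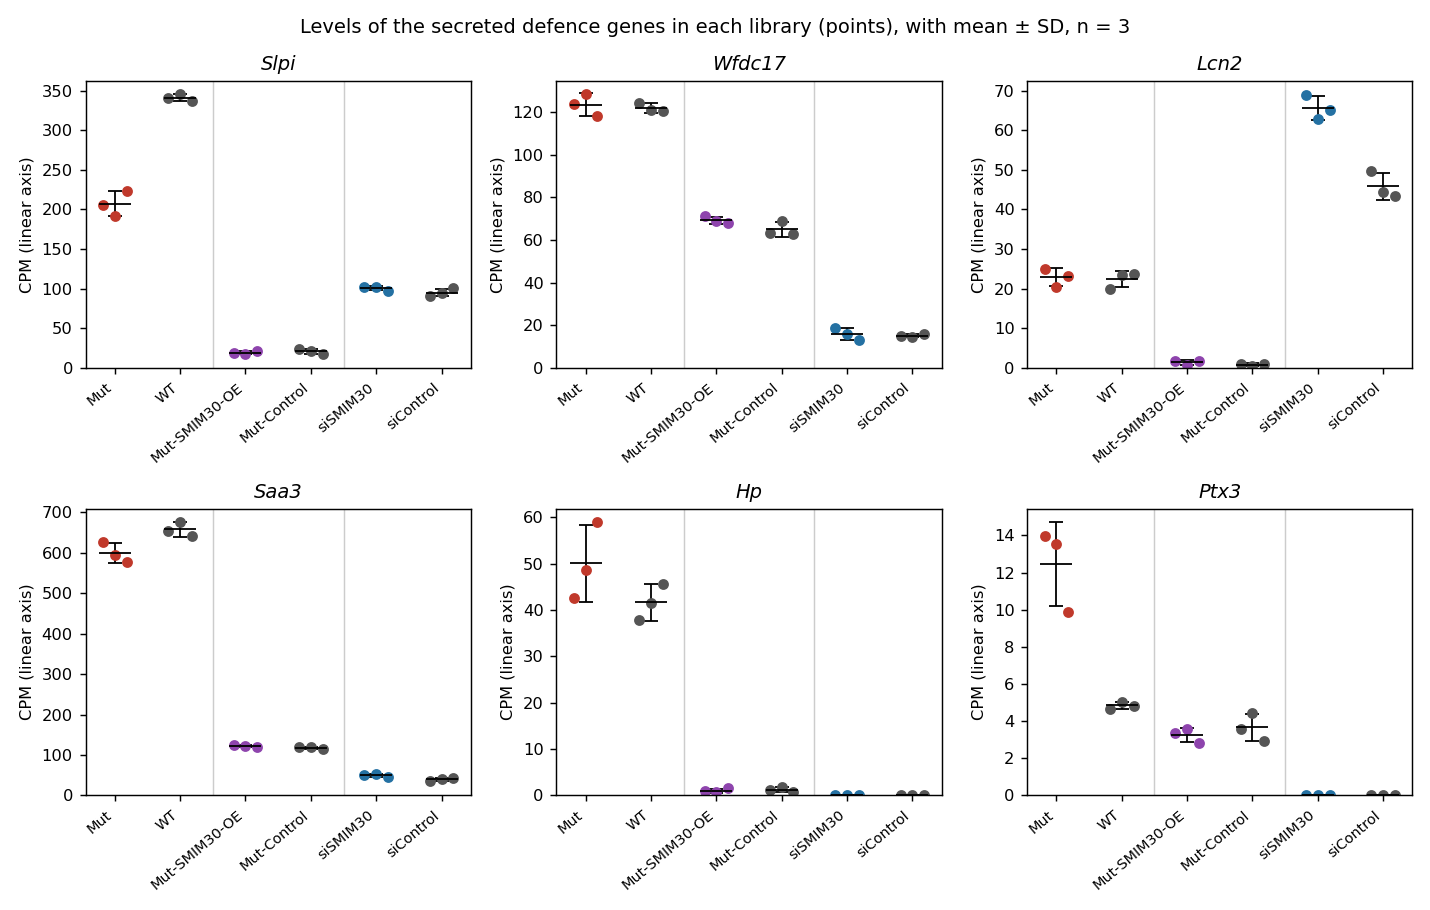
Level of 6 secreted defence genes in each of 18 libraries (points; x axis, group; y axis, CPM on a linear scale), with the mean and SD of 3 libraries. Slpi in Mut (192 to 223 CPM) lies below WT (337 to 346 CPM), Ptx3 in Mut (9.88 to 14 CPM) lies above WT (4.67 to 5.04 CPM), and Lcn2 is highest in siSMIM30 (62.9 to 69.0 CPM).

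The first comparison asks how macrophages of SMIM30-Mut mice differ from wild-type ones under LPS. Slpi had 206, 192 and 223 CPM in the 3 Mut libraries, against 340.5, 346 and 337 CPM in the WT libraries. Every Mut library lay below every WT library, and the WT libraries were close together, with an SD of 1.23% of their mean. Slpi fell by 0.73 on the log2 scale in Mut (SE 0.05), to 60.3% of WT, with an adjusted p of 5.6e-11 in edgeR's quasi-likelihood test. By p it ranked 3 of 12500 genes tested. In bulk RNA, fewer cells that make Slpi and less Slpi RNA per cell cannot be told apart.

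Ptx3 moved the other way. It had 14, 13.5 and 9.88 CPM in Mut libraries, against 4.67, 5.04 and 4.82 CPM in WT libraries. All Mut libraries lay above all WT libraries, with more spread among the Mut ones. The rise was 1.33 on the log2 scale (SE 0.17), or 2.52-fold, with an adjusted p of 2.6e-06 (edgeR quasi-likelihood), and it ranked 18 of all genes by log2 change.

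The other members changed less, if at all. Saa3 had 628, 593 and 578 CPM in Mut and 654, 677 and 642 CPM in WT. All Mut values were below all WT values, but the difference of -0.14 on the log2 scale (95% interval -0.23 to -0.05) did not pass over all genes, with an adjusted p of 0.064 by edgeR quasi-likelihood. Hp had 42.7, 48.6 and 58.9 CPM in Mut and 37.8, 41.5 and 45.6 CPM in WT. These groups overlap, and the log2 difference of 0.26 (0.05 to 0.47) had an edgeR adjusted p of 0.198. Without Mut replicate 1 both genes passed, with edgeR adjusted p of 0.0273 for Saa3 and 0.0167 for Hp.

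Lcn2 averaged 22.9 ± 2.28 CPM in Mut and 22.4 ± 2.11 CPM in WT (SD, n = 3), a log2 difference of 0.02 with a 95% interval of -0.19 to 0.23. Wfdc17 averaged 124 ± 5.28 CPM in Mut and 122 ± 2.14 CPM in WT, a log2 difference of 0.01 with an interval of -0.10 to 0.11. Wfdc21 was at the detection limit, with 0, 4 and 2 counts in Mut libraries and 2, 0 and 0 in WT libraries, and no test was made. The genes called were thus 2 of the 6 tested, 1 in each direction, against 6.3% of all genes tested (3.68% in the higher and 2.62% in the lower direction). Groups did not overlap for 22.9% of all genes.

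Ribosomal RNA genes took 0.399 to 1.03% of counts in Mut and 1.74 to 2.49% in WT, and without those genes the log2 differences of Slpi and Ptx3 were again -0.73 and 1.33. Markers of cell types also moved between Mut and WT, and their part in the results was not tested. The 11 dendritic cell markers summed to 63.8 to 71.7 CPM in Mut and 45.2 to 49.2 CPM in WT, with Xcr1 at no more than 3 counts in both groups, and 2 of 6 tested were higher. The 14 B and T cell markers summed to 62.9 to 65.7 CPM in Mut and 84.8 to 95.8 CPM in WT. Most of this was Cd22, with 49.0 CPM in Mut and 69.6 CPM in WT, and also 51.7 CPM in siSMIM30 and 59.2 CPM in siControl. Cd3d was at 0 in Mut and WT, and Cd22 was the 1 of 6 tested that was lower. The 15 markers of mesothelial cells and fibroblasts summed to 212 to 248 CPM in Mut and 233 to 257 CPM in WT, and none of the 7 tested passed. The 16 neutrophil markers summed to 276 to 293 CPM in Mut and 268 to 284 CPM in WT, mostly Csf3r and Mmp9. S100a9, Ly6g and Retnlg were at 0 in both groups. Of 4 tested, Mmp8 and Mmp9 were lower (1.81 and 1.22 times) and Csf3r was higher (1.19-fold). Of 11 macrophage markers, which summed to 16588 to 17512 CPM in Mut and 17749 to 18883 CPM in WT, 3 were higher and 2 lower, with a median of -0.01. Of 8 large peritoneal macrophage markers tested, Serpinb2 was higher and Prg4 lower, with a median of -0.45.

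**Figure D2:**
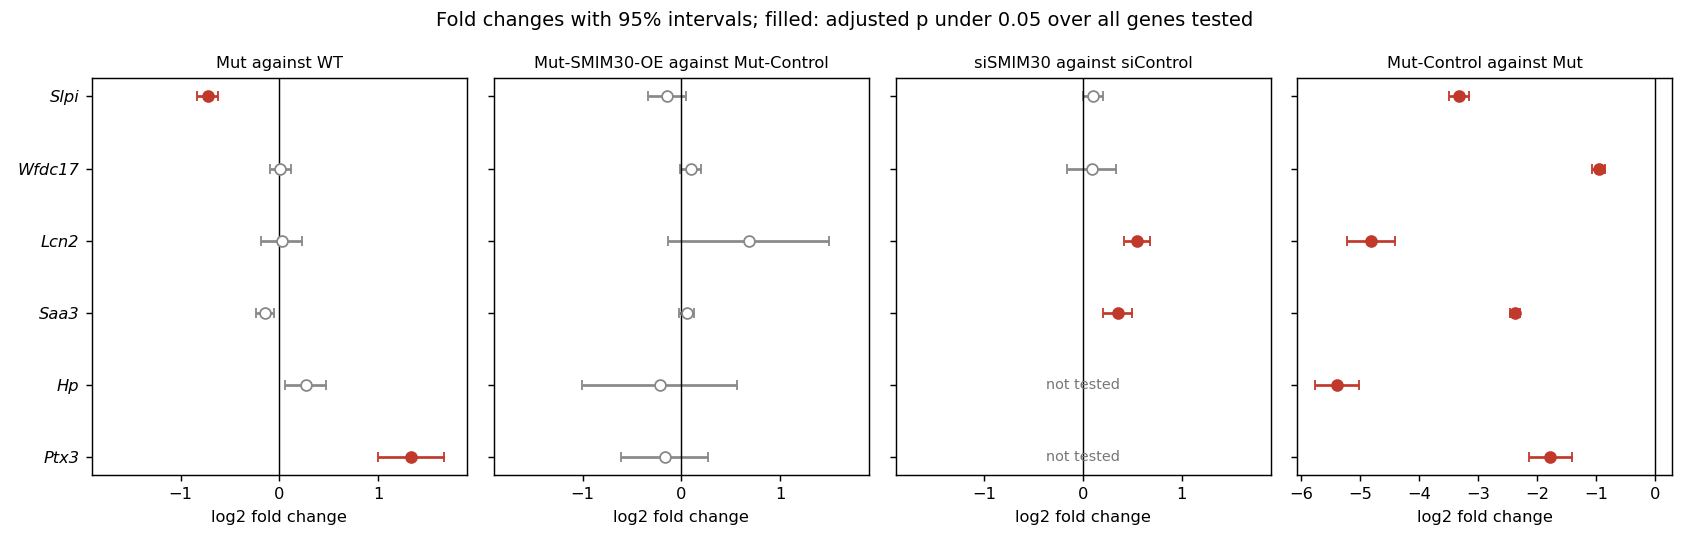
Log2 fold change of 6 secreted defence genes (rows) in 4 comparisons (panels; x axis, log2 fold change, with a wider range in the last panel), with 95% intervals and filled points for an adjusted p under 0.05. Slpi is lower and Ptx3 higher in Mut, no gene passes with the SMIM30 virus, Lcn2 and Saa3 are higher in siSMIM30, and all 6 are lower in Mut-Control than in Mut.

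Other acute-phase genes did not follow Slpi down. Of 13 tested in Mut against WT, 3 were higher and 0 lower, with a median log2 difference of 0.26 against -0.01 over all genes. Ceruloplasmin (Cp), a copper-carrying ferroxidase, averaged 14.1 ± 1.81 CPM in Mut and 8.11 ± 1.52 CPM in WT, and rose 1.70-fold. Cd14, the LPS co-receptor, averaged 939.7 ± 35.2 CPM in Mut and 719 ± 31.2 CPM in WT, and rose 1.30-fold (edgeR adjusted p = 1.8e-06). The third was the metallothionein Mt1, up 1.20-fold. Complement C3 had a log2 difference of -0.15, with an edgeR adjusted p of 0.0833.

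Among other antimicrobial genes listed, 2 of 10 tested were lower and 2 higher, with a median of -0.03. The lysozymes fell: Lyz2 averaged 6114 ± 181 CPM in Mut and 7438 ± 235 CPM in WT, or 1.22 times lower, and Lyz1 averaged 56.2 ± 2.66 CPM in Mut and 68.0 ± 1.83 CPM in WT. The itaconate-making enzyme gene Acod1 rose 1.17-fold and the lectin gene Lgals9 1.37-fold. Of the proteases and protease inhibitors listed, none fell, and Serpinb2, an inhibitor of plasminogen activators, rose 1.24-fold, opposite to Slpi.

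Of 25 inducers of these genes tested, 8 were higher in Mut, 0 were lower and 17 did not pass, with a median of 0.11. Il1b averaged 1761 ± 336 CPM in Mut and 645 ± 41.8 CPM in WT (log2 1.44, edgeR adjusted p = 0.0210), and Il6 averaged 96.1 ± 19.7 CPM in Mut and 41.9 ± 0.316 CPM in WT (log2 1.18, adjusted p = 0.0157). Socs3, the feedback inhibitor of interleukin-6 signalling, rose 1.49-fold. Among transcription factor genes on that list, Nfkb1, an NF-kB subunit, rose by 0.22 and Klf6 by 0.44 on the log2 scale. Cebpb (0.33), Cebpd (-0.22), Stat3 (0.07) and the NF-kB cofactor Nfkbiz (0.10) did not pass.

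Genes of iron and haem handling, the process that Lcn2 and Hp serve, had 5 of 14 tested lower and 0 higher, with a median of -0.12. Tfrc, the transferrin receptor, averaged 198 ± 17.7 CPM in Mut and 278 ± 11.2 CPM in WT. Hmox1, which breaks down haem, averaged 786 ± 52.2 CPM in Mut and 986 ± 34.2 CPM in WT, a log2 difference of -0.34. The other 3 were Slc11a1, Ftl1 and Lrp1. Of 21 receptors and partners of the proteins, 4 were higher (Anxa2, Fcgr1, Tlr4 and Fcgr2b) and 2 lower (Fpr1 and Mmp9, whose product Lcn2 binds), with a median of 0.01.

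**Figure D3:**
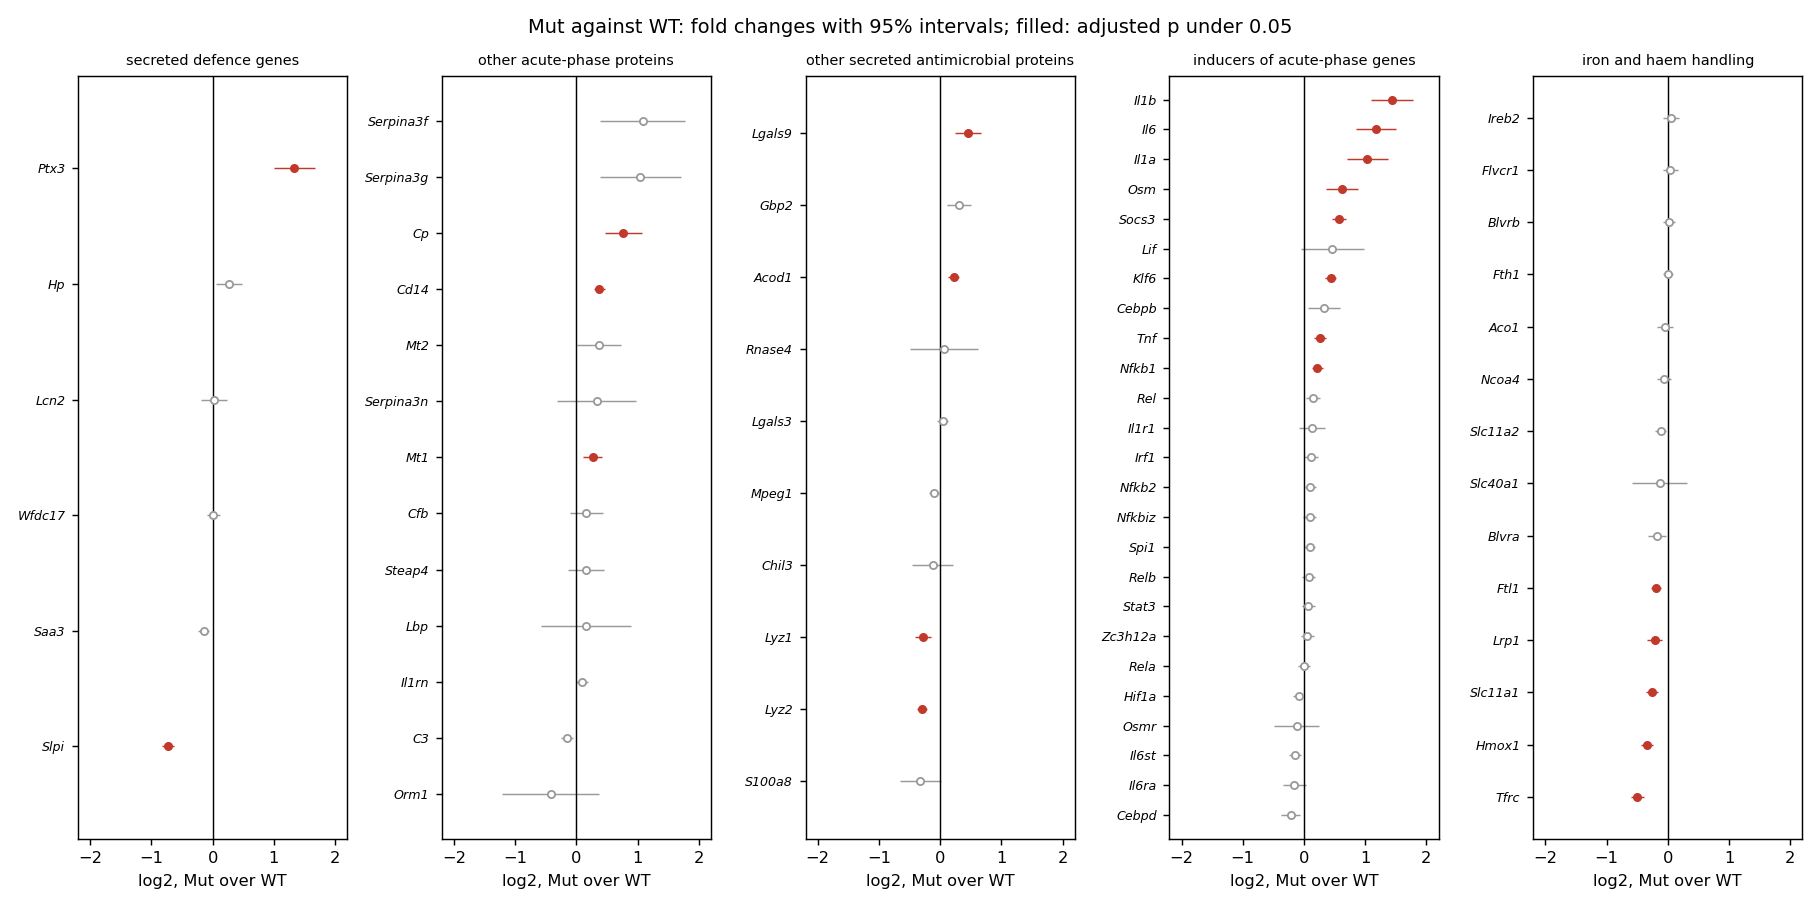
Log2 fold change of Mut over WT (x axis) with 95% intervals for the secreted defence genes and 4 lists of other genes (rows, ordered by fold change; filled, adjusted p under 0.05). Slpi (-0.73) and Ptx3 (1.33) stand at opposite ends of their panel, 8 inducers are higher and 5 iron and haem genes are lower.

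The second comparison asks whether SMIM30 overexpression changes Mut macrophages, with Smim30 at 53.1 CPM in Mut-SMIM30-OE and 43.9 CPM in Mut-Control, and no member passed. Slpi had 18.7, 17.4 and 20.9 CPM in Mut-SMIM30-OE, against 23.9, 21.5 and 17.6 CPM in Mut-Control. The groups overlap, and the log2 difference was -0.15 with a 95% interval of -0.34 to 0.05. Saa3 had 125, 121 and 120.2 CPM in Mut-SMIM30-OE and 119, 121 and 115 CPM in Mut-Control, a log2 difference of 0.05 (-0.03 to 0.13). Wfdc17 had 71.2, 68.8 and 68.1 CPM in Mut-SMIM30-OE and 63.5, 69.0 and 62.7 CPM in Mut-Control, a log2 difference of 0.10 (-0.01 to 0.20). For both genes the groups overlap.

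The remaining genes were scarce in virus-treated cells. Lcn2 averaged 1.34 ± 0.579 CPM in Mut-SMIM30-OE and 0.809 ± 0.295 CPM in Mut-Control, with 49 and 27 counts in all, and its log2 interval of -0.13 to 1.5 is wide. Hp averaged 1.03 ± 0.468 CPM in Mut-SMIM30-OE and 1.22 ± 0.526 CPM in Mut-Control, with a log2 interval of -1.0 to 0.57. Ptx3 averaged 3.26 ± 0.389 CPM in Mut-SMIM30-OE and 3.66 ± 0.752 CPM in Mut-Control, with a log2 interval of -0.61 to 0.27. Of the 6 genes tested, 0 passed in edgeR's quasi-likelihood test, 0 had an unadjusted p under 0.05, and 0 passed in DESeq2 or limma-voom, where 1.43% of all genes passed in edgeR.

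A few genes of the surrounding lists did pass with the SMIM30 virus. C3 averaged 73.9 ± 2.99 CPM in Mut-SMIM30-OE and 93.4 ± 4.73 CPM in Mut-Control, a log2 difference of -0.33 (edgeR adjusted p = 4.5e-06). Steap4, a metalloreductase gene, was the other of 9 acute-phase genes tested to fall, with a log2 difference of -1.16. Cebpb was the 1 of 25 inducers to fall (log2 -0.20), Lgals9 the 1 of 11 antimicrobial genes to rise (log2 0.20), and Itgam, Cd36, C1qa and C1qb the 4 of 20 receptors and partners to rise. None of 14 iron and haem genes or 8 proteases and inhibitors passed. Markers of mesothelial cells and fibroblasts summed to 51.1 to 57.8 CPM in Mut-SMIM30-OE and 94.0 to 115 CPM in Mut-Control. All 7 tested fell, with a median of -1.18, and their part in the falls of C3 and Steap4 was not tested.

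The mutation and overexpression effects were also added in a fit of the 12 libraries concerned, where equal and opposite effects would give a sum of 0. The sum was -0.87 on the log2 scale for Slpi (95% interval -1.09 to -0.65, edgeR adjusted p = 1.2e-05) and 1.17 for Ptx3 (0.62 to 1.72, adjusted p = 0.0053). For these genes the sum thus differed from 0, 2 of 6 members tested, where 5.23% of all genes passed. For Saa3, Lcn2, Hp and Wfdc17 the sum did not pass. The added effects come from uninfected and from virus-treated cells. Slpi was 10.1 times and Ptx3 3.43 times lower in Mut-Control than in Mut. Smim30 averaged 53.1 CPM in Mut-SMIM30-OE and 43.9 CPM in Mut-Control, a small difference. The sum therefore cannot tell whether SMIM30 reverses the mutation effect.

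Virus-treated Mut cells stood apart from Mut cells for every member tested. Mut-Control and Mut differ in virus, in time in culture and in the part of the study they come from, and these cannot be told apart. All 6 members tested were lower in Mut-Control, 5 of them at least 2-fold, where 26.5% of all genes were lower and 8.33% at least 2-fold lower. Either direction together made up 53.6%. Hp averaged 1.22 ± 0.526 CPM in Mut-Control and 50.03 ± 8.21 CPM in Mut, 42.0 times lower by the fit (log2 -5.39, SE 0.19). Lcn2 averaged 0.809 ± 0.295 CPM in Mut-Control and 22.9 ± 2.28 CPM in Mut, 28.1 times lower (log2 -4.81, SE 0.20).

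Slpi averaged 20.97 ± 3.16 CPM in Mut-Control and 207 ± 15.6 CPM in Mut, 10.1 times lower. Libraries of these groups did not overlap for Slpi, as for 59.7% of all genes. Saa3 averaged 118 ± 3.08 CPM in Mut-Control and 599.7 ± 25.5 CPM in Mut, 5.20 times lower. Ptx3 averaged 3.66 ± 0.752 CPM in Mut-Control and 12.5 ± 2.24 CPM in Mut, 3.43 times lower. Wfdc17 differed least, with 65.1 ± 3.45 CPM in Mut-Control and 124 ± 5.28 CPM in Mut, 1.94 times lower. The highest edgeR adjusted p among the 6 was 1.1e-09, that of Ptx3.

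The other acute-phase genes moved the same way, with 10 of 12 tested lower in Mut-Control, 1 higher (Lbp) and a median log2 difference of -1.72. Cp was 11.7 times lower, Cfb 4.32 times and C3 2.79 times. Of 25 inducers, 15 were lower and 8 higher, with Il6 at 1.55 ± 0.180 CPM in Mut-Control and 96.1 ± 19.7 CPM in Mut. Nfkbiz, which encodes a nuclear IkB protein needed for Lcn2 induction in mouse macrophages, was higher, with 612 ± 23.9 CPM in Mut-Control and 172 ± 11.5 CPM in Mut. Lyz2, a broad macrophage marker, differed by 0.01 on the log2 scale.

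Markers of other cells moved with this comparison too, and their part in it was not tested. Those of mesothelial cells and fibroblasts summed to 94.0 to 115 CPM in Mut-Control and 212 to 248 CPM in Mut, with Upk1b at 0 in Mut-Control, and 7 of 7 tested were lower. The dendritic cell markers summed to 17 to 22.2 CPM in Mut-Control and 63.8 to 71.7 CPM in Mut, and 3 of 5 tested (Batf3, Ccl22 and Fscn1) were lower, with a median of -2.62. Of 4 B and T cell markers tested, Cd79a and Ighm were lower and Cd22 higher. The list, mostly Cd22, summed to 86.7 to 97.4 CPM in Mut-Control and 62.9 to 65.7 CPM in Mut. Neutrophil markers, mostly Csf3r and Mmp9, summed to 114 to 120 CPM in Mut-Control and 276 to 293 CPM in Mut. Of 4 tested, 3 were lower and 1 higher. S100a9, Ly6g and Retnlg had no counts in either group. The macrophage markers summed to 20431 to 20569 CPM in Mut-Control and 16588 to 17512 CPM in Mut, with 5 of 11 higher and 4 lower. Of 8 large peritoneal macrophage markers tested, 3 were higher and 3 lower.

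The third comparison asks what SMIM30 siRNA does in IC-21 cells, where the genes that passed were Lcn2 and Saa3. Lcn2 had 69.0, 62.9 and 65.1 CPM in siSMIM30, against 49.7, 44.4 and 43.5 CPM in siControl. All siSMIM30 libraries lay above all siControl libraries, and Lcn2 rose by 0.54 on the log2 scale (SE 0.07), or 1.46-fold, with an adjusted p of 3.7e-08 by edgeR quasi-likelihood. Saa3 had 51.2, 53.3 and 46.5 CPM in siSMIM30, against 36.6, 39.5 and 43.6 CPM in siControl. The groups did not overlap here either, and Saa3 rose by 0.35 (SE 0.08), or 1.27-fold, with an edgeR adjusted p of 0.0020.

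Slpi, in contrast to its fall in Mut, had 102, 102 and 97.4 CPM in siSMIM30 and 90.6, 94.3 and 100.2 CPM in siControl. These overlap, with a log2 difference of 0.10 and a 95% interval of -0.0040 to 0.20. Wfdc17 averaged 15.7 ± 2.84 CPM in siSMIM30 and 15.1 ± 0.693 CPM in siControl, a log2 difference of 0.09 (-0.16 to 0.33). The genes called were 2 of 4 tested, both higher, where 3.48% of all genes passed and 2.39% were higher. Groups did not overlap for 19% of all genes.

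Ptx3, Hp and Wfdc21 were not tested in IC-21. Ptx3 had no counts in any of its 6 libraries, so its mean in Mut was at least 114-fold higher than in siControl and at least 102-fold higher than in siSMIM30, taking a floor of 3 counts over each group. Hp had 1 count in all in siSMIM30 and 1 in siControl. Wfdc21 had 0 counts in both groups, in Mut-SMIM30-OE and in Mut-Control. IC-21 cells thus lacked detectable Ptx3 at this depth while holding more Lcn2 than the peritoneal groups.

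Of the inducers, 7 of 25 tested were higher in siSMIM30 and 0 lower, with a median of 0.08. Nfkbiz averaged 216 ± 12.3 CPM in siSMIM30 and 187 ± 8.5 CPM in siControl, 1.16-fold higher. Socs3 rose 1.44-fold, Osm 1.29-fold and Tnf 1.12-fold. Il1b (log2 0.62) and Il6 (log2 0.39) did not pass, with edgeR adjusted p of 0.193 and 0.349, nor did Cebpb (0.17), Cebpd (0.00) and Stat3 (-0.04).

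Among 7 other acute-phase genes tested, Il1rn, the interleukin-1 receptor antagonist, rose 1.34-fold and none fell. Acod1 was the 1 of 8 antimicrobial genes to rise (1.14-fold), and Anxa2 the 1 of 20 receptors and partners. Of 14 iron and haem genes, Hmox1, Fth1, Ftl1 and Lrp1 rose, by 1.09-fold for the first 3 and 1.11-fold for Lrp1, and Ireb2, an iron sensor, fell by 0.23 on the log2 scale. None of 7 proteases and inhibitors passed. The other WAP genes with enough counts, Wfdc15a and Wfikkn1, did not pass, and in primary cells no other member of the WAP, serum amyloid A or pentraxin families had enough counts to be tested.

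Markers of mesothelial cells and fibroblasts were near absent in IC-21. They summed to 0.134 to 0.597 CPM in siSMIM30 and 0.116 to 0.292 CPM in siControl, with 11 and 12 of the 15 at 0 counts. Other lists had counts. The neutrophil markers summed to 52.3 to 56.9 CPM in siSMIM30 and 51.1 to 58.0 CPM in siControl, mostly Csf3r, with S100a9, Ly6g and Retnlg at 0 in both groups. The B and T cell markers summed to 53.3 to 61.0 CPM in siSMIM30 and 62.7 to 68.8 CPM in siControl, mostly Cd22, and the dendritic cell markers to 10.6 to 12.7 CPM in siSMIM30 and 10.9 to 13.2 CPM in siControl. None of the 5, 2 and 3 genes tested from these lists passed. Counts of such markers in an established line do not show that other cell types are present, and the source of these counts was not tested.

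**Figure D4:**
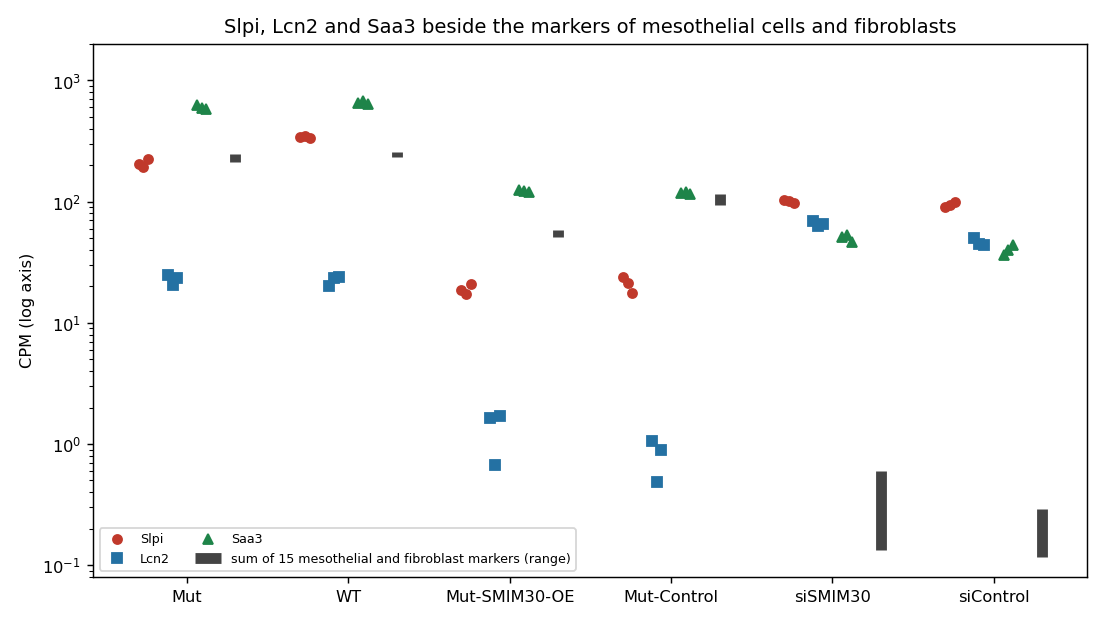
Slpi, Lcn2 and Saa3 in each library and the range of the summed level of 15 mesothelial and fibroblast markers (y axis, CPM on a log scale; x axis, group). The marker sum is 0.116 to 0.597 CPM in IC-21, where Lcn2 is highest, and 51.1 to 257 CPM in the peritoneal groups.

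The difference between the effects in the primary cells and in the line was tested in a fit of 12 libraries, as the effect of the mutation minus that of the siRNA. It was -0.82 on the log2 scale for Slpi (SE 0.08, edgeR adjusted p = 5.6e-11), -0.52 for Lcn2 (SE 0.12, adjusted p = 0.0114) and -0.49 for Saa3 (SE 0.08, adjusted p = 0.00013). Thus 3 of 4 members tested had a lower effect in Mut than in siSMIM30, where 2.51% of all genes differed and 1.26% were lower. Ptx3 and Hp were left out of this test because each had no more than 3 counts in all in IC-21. The shares over all genes had no such exclusion. Ptx3 rose by 1.33 on the log2 scale in Mut against WT, and Hp differed by 0.26 without passing. Without WT replicate 3 or Mut replicate 2, the adjusted p of Lcn2 was 0.0560 and 0.0621. Wfdc17 differed by -0.08 (95% interval -0.32 to 0.16). Mutation against siRNA, primary cells against a line, and the parts of the study coincide here and cannot be told apart.

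Over the 6 groups, the members fell into unlike orders. For Slpi, Mut libraries lay below WT libraries and above the IC-21 groups, siSMIM30 and siControl overlapped, and Mut-SMIM30-OE and Mut-Control overlapped at the bottom. For Lcn2, siSMIM30 stood above siControl, both above Mut and WT, which overlapped, and the virus-treated groups lay lowest. For Saa3 the 3 pairs stood in the order of uninfected, virus-treated and IC-21 cells. Ptx3 had the same order of pairs, with Mut above WT. So did Hp and Wfdc17, with Mut and WT overlapping in each.

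By the likeness of log2 CPM over the 18 libraries, the gene most like Slpi among 9734 searched was Hmox1 (Pearson r = 0.988), followed by Ppard and Ptpn1. Saa3 was most like Mmp14 (0.998), Lcn2 like Gbe1 (0.989), Ptx3 like Slfn8 (0.997), Hp like Tbc1d9b (0.997) and Wfdc17 like Alas1 (0.999). The libraries of a group share its level, so such values rest mostly on the differences between 6 groups and are a description. Hmox1 did differ between Mut and WT in the same direction as Slpi, by -0.34 against -0.73 on the log2 scale.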

How the data were processed

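RNA was sequenced from 18 libraries in 6 groups of 3, made as strand-specific libraries from total RNA, per the labels' protocols. The tools fastp, FastQC, HISAT2, featureCounts and DESeq2 3.1.0 are named in the submitters' processing notes. The authors deposited unnormalized counts, read pairs over the exons of each gene, from featureCounts 2.0.3 on reversely stranded pairs with GENCODE M25 on GRCm38, per the file headers. Symbols from GENCODE M21 matched 55141 of 55401 identifiers. The sample number inside a file differed from that in its name, and the sample recorded for each file was used.

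The members and gene lists were chosen with earlier results of these data known. CPM was scaled to each library's total of assigned pairs. Each comparison was fitted to its own 6 libraries in edgeR 4.0.16 (R 4.3.3): genes kept by filterByExpr, TMM scaling, the robust quasi-likelihood test, and Benjamini-Hochberg adjustment over all genes tested at 0.05. Sums and differences of effects were fitted to 12 libraries. Genes named beside the members were up to 4 per list by smallest p among those called, and Nfkbiz, Cebpb, Cebpd, Il6, Il1b and Stat3; C3, Fcgr2b, Mmp9 and Lrp1 in Mut against WT, Tnf and Hmox1 in siSMIM30, Lyz2 and Lbp in Mut-Control, and Wfdc15a and Wfikkn1 were named after their values were seen, as were the markers named outside that rule. A result of the protease list is not reported here. The main fit was also run on simulated counts with known changes, for some of the comparisons. Their spread followed the trend over genes, so genes that vary more than that trend were not covered. Alternatives were RLE scaling, library totals alone, every gene kept, genes kept at 1 CPM in 3 libraries, limma-voom (limma 3.58.1), DESeq2 1.42.0, 1 model over 18 libraries, a block for replicate number, leaving out each library and, added after the data were seen, leaving out ribosomal RNA genes. Chi-square per gene between replicates was 1.67 to 5.24, above counting noise, so none was counted as a repeat.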

Additional observations from a re-analysis of the deposited data

Results flagged for a closer look

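Slpi, Lcn2 and Saa3 stood out because the effect of the mutation in peritoneal macrophages and that of the siRNA in IC-21 cells differed by a test of the difference itself. The mutation effect minus the siRNA effect was -0.82 on the log2 scale for Slpi, which was lower in Mut and had a log2 difference of 0.10 in siSMIM30. It was -0.52 for Lcn2 and -0.49 for Saa3, which were higher in siSMIM30 and had 0.02 and -0.14 in Mut. Cell source and the way SMIM30 was perturbed coincide and cannot be told apart.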

How the results depend on the processing

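Of 519 values of the members under the alternatives, 511 kept their side of the threshold, 6 gained a call and 2 lost one. No value called in the main fit or in the alternative changed direction. Some values without a call did, such as Lcn2 in Mut against WT (-0.06 to 0.10 on the log2 scale). In Mut against WT, Slpi stayed between -0.79 and -0.67 on the log2 scale and Ptx3 between 1.24 and 1.49, with highest adjusted p of 3.6e-08 and 0.00013. Hp passed there with no filter (adjusted p = 0.0250), with the replicate block (0.0393) and without Mut replicate 1 (0.0167), in a range up to 0.545. Saa3 passed with limma-voom (0.0467), with the 18-library fit (0.0343) and without Mut replicate 1 (0.0273), in a range up to 0.376. The members called in Mut against WT thus numbered 2 to 4 with a library left out, 4 of them without Mut replicate 1. The calls lost were those of Lcn2 for the mutation effect minus the siRNA effect without WT replicate 3 (0.0560) and without Mut replicate 2 (0.0621). In siSMIM30 against siControl, the highest adjusted p of Saa3 was 0.0427.

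Counts over all genes moved more. In Mut against WT, 788 genes were called, 1198 in the 18-library fit and 469 to 957 with a library left out (lowest without Mut replicate 2). With the SMIM30 virus 181 were called, 68 by DESeq2, 87 in the 18-library fit and 66 to 453 with a library left out. The extremes there were without Mut-SMIM30-OE replicate 3 and without Mut-Control replicate 3, and 82 were called without Mut-Control replicate 1 and 106 without Mut-SMIM30-OE replicate 2. In siSMIM30 against siControl 472 were called, 291 by DESeq2, 263 in the 18-library fit and 309 to 422 with a library left out (lowest without siControl replicate 2). The cause of these shifts was not tested.

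The labels tie no replicate number to a mouse or day, so the main fits did not pair the samples. Deviations of same-numbered libraries correlated at 0.07 or less. Such correlations over all genes cannot show that pairing is absent, and whether the samples are paired is not known. With replicate number as a block, 782 genes were called in Mut against WT, 253 with the SMIM30 virus and 546 in siSMIM30 against siControl, and Hp was the member whose call changed. Scaling alternatives moved the median of all genes by at most 0.03 on the log2 scale. Depth limits Wfdc21 in all groups, Ptx3 and Hp in IC-21, and Lcn2 and Hp in virus-treated cells.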
